A study of Mus with 4 samples.

Results

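The apicobasal polarity complexes were represented by 10 of the 16358 genes named on the array, *Pard3*, *Pard6a*, *Pard6b*, *Pard6g*, *Prkci*, *Prkcz*, *Scrib*, *Dlg1*, *Llgl1* and *Crb3*. All probes whose RefSeq accession maps to one of these symbols were taken, which gave 15 of the 41174 probes of the array, whatever their values. *Pard3* and *Prkcz* were held by 3 probes each, *Dlg1* by 2 and the other 7 genes by 1. The RNA came from GFP-positive cells sorted by FACS from mouse kidneys at embryonic day 15.5 and was pooled from several kidneys. *Mut* pools were Six2 CreEGFP+ with PRR flox/flox, so that the gene of the prorenin receptor (PRR, *Atp6ap2*) is deleted where Cre is active, and *WT* pools were Six2 CreEGFP+ with PRR+/+. Both groups therefore carried the Cre-EGFP transgene, whose *Six2* promoter is active in the nephron progenitors of the cap mesenchyme. *Mut* pools 1, 2 and 3 in Cy3 (green) were each hybridized with the equally numbered *WT* pool in Cy5 (red) on arrays 1, 2 and 3. On 1 more array, named here the *WT* vs *WT* array, *WT* pool 1 (Cy5) was hybridized with *WT* pool 2 (Cy3). The dyes were not exchanged, so genotype and dye coincide on arrays 1 to 3.

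Epithelial cells have an apical side, which faces the lumen, and a basolateral side, and protein complexes that exclude each other hold these domains apart. The Par complex joins the scaffold Par3, a Par6 adaptor and an atypical protein kinase C (aPKC) at the apical junction, the Crumbs complex marks the apical membrane, and the Scribble, Dlg and Lgl proteins act on the basolateral side. Nephron progenitors are mesenchymal cells that acquire this polarity when they form the renal vesicle, and the tubules, podocytes and collecting system of the kidney are all polarized epithelia.

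On arrays 1 to 3, 45.4 to 49.7% of the spots were well above background in Cy3 and 54.4 to 58.7% in Cy5. *Six2*, which marks the sorted cells, was well above background in both channels of all 3 arrays, at a *Mut*/*WT* ratio of -0.18 on the log2 scale (SE 0.061, limma adjusted P = 0.0402). The log2 of the summed signal of 12 nephron progenitor genes was 14.73 to 14.80 in *Mut* and 14.88 to 14.94 in *WT*. The brightest genes weigh most in such a sum, here *Crym*, at a mean of 13.70 in *Mut* and 13.98 in *WT*. With the dye term *Six2* kept its direction, at -0.21, but did not pass (limma adjusted P = 0.467). *WT* pool 2 in Cy3 on the *WT* vs *WT* array had a sum of 14.74, inside the *Mut* range. The 1 probe of *Atp6ap2* had a log2 *Mut*/*WT* of -0.08, -0.19 and -0.25 on arrays 1, 2 and 3 and of -0.19 on the *WT* vs *WT* array, so it does not check the genotypes. The dye of each genotype was taken from the labels. *WT* pool 1 differed between array 1 and the *WT* vs *WT* array in the log2 of the summed signal of 7 erythroid genes (10.76 and 11.99) and of 10 differentiating nephron genes (11.24 and 11.71), although the labels give the same pool. The tests of *Mut* against *WT* do not use the *WT* vs *WT* array, and its values and those of a dye term estimated from it stand beside them.

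With loess normalization and a background offset of 50, none of the 15 polarity probes differed between *Mut* and *WT* by more than 1.5-fold. Whether the mean ratio over the 3 arrays differed from 0 was tested with limma, and a probe was called differentially expressed at a Benjamini-Hochberg adjusted P under 0.05 together with a fold change over 1.5. By that rule 0 of the 15 probes were called in either direction, whereas 0.554% of all 41166 tested probes were called higher and 1.46% lower in *Mut*, or 2.01% together. At an unadjusted P under 0.05 (limma) 7 of the 15 probes passed, 3 higher and 4 lower, but 0 did so with a change over 1.5-fold. That share, 46.7%, stood beside 40.6% of all probes. With these settings the 95% intervals of the 10 probes that were well above background in every channel lay between -0.57 and 0.56, beside the value of 0.58 that stands for 1.5-fold either way. With median centring *Llgl1* (-0.74), *Pard6g* (-0.70), *Dlg1* A_51_P101858 (-0.71) and *Prkci* (-0.59) lay beyond that value, and none passed the adjusted P. Bright genes outside the complexes did so too, such as *Six2* (-0.78) and *Cited1* (-0.74). For the 4 probes that were well above background in no *Mut* channel the offset of 50 holds the ratio near 0, and a 1.5-fold difference is not excluded there. With the log ratios deposited by the authors 2 of the 15 probes were called, *Prkcz* A_52_P438084 (0.69) and *Dlg1* A_51_P101858 (-0.88), beside 6.57% of all probes.

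**Figure D1:**
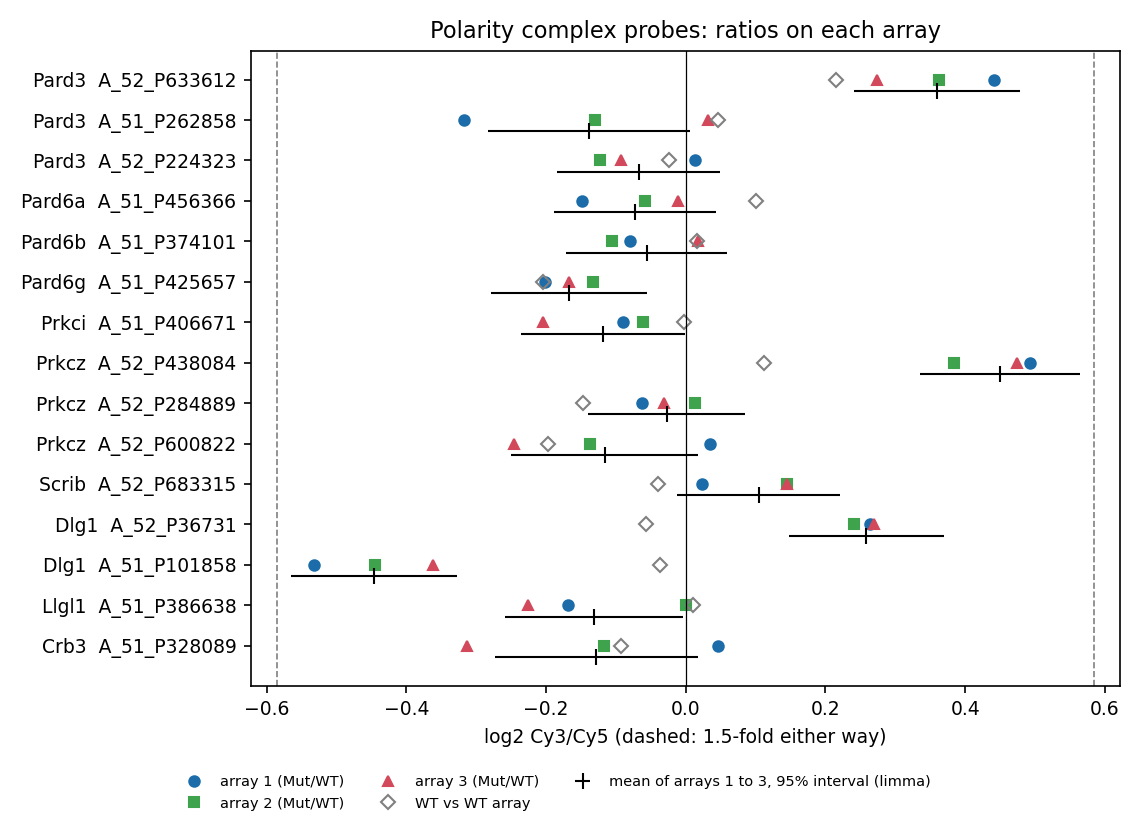
Log2 Cy3/Cy5 of the 15 polarity probes (rows) on arrays 1 to 3, where it is *Mut*/*WT*, with the mean and its 95% interval (limma, black) and the value on the *WT* vs *WT* array (open diamonds); dashed lines mark 1.5-fold either way. The black intervals stay between -0.57 and 0.56, and the diamonds between -0.21 and 0.21.

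Without the fold minimum, 5 of the 15 probes (33.3%) had an adjusted P under 0.05, beside 29.6% of all probes tested. Of these, 3 probes (20%) were higher in *Mut*, beside 13.2% of all probes, and 2 (13.3%) were lower, beside 16.4%. The share among the polarity probes was thus near that of the whole array. The higher probes were 1 each of *Pard3*, *Prkcz* and *Dlg1*, which all turned lower when the arrays were centred on their median in place of loess normalization. The lower probes were that of *Pard6g* and the second probe of *Dlg1*. With an offset of 0, median centring or the adjusted *t*-test of the methods, 0 of the 15 probes passed, but 0 of all probes tested did so too. With a dye term 0 of the 15 passed, beside 1.11% of all probes.

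The Par complex is built on *Pard3*, the scaffold that positions it at the forming junction. Its probe A_52_P633612 (NM_001013580) had a normalized log2 signal of 8.64, 8.73 and 8.52 in *Mut* pools 1, 2 and 3 and of 8.20, 8.36 and 8.24 in *WT* pools 1, 2 and 3. Every *Mut* pool was higher than every *WT* pool. The log2 *Mut*/*WT* was 0.44, 0.36 and 0.27, a mean of 0.36 (SE 0.054, n = 3, limma adjusted P = 0.000502), or 1.28-fold, but -0.12 with median centring and 0.14 with the dye term (adjusted P = 0.593). *WT* pool 2, in the same dye as the *Mut* pools on the *WT* vs *WT* array, stood at 8.48, close to *Mut* pool 3, and the log2 Cy3/Cy5 of that array was 0.21 for this probe.

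The other *Pard3* probes name other RefSeq transcripts of the gene. A_51_P262858 (NM_033620) had log2 *Mut*/*WT* ratios of -0.32, -0.13 and 0.03 (mean -0.14, SE 0.066, adjusted P = 0.137), with 1 of the 3 *Mut* channels well above background. It was -0.22 without array 3 (adjusted P = 0.0112), -0.05 without array 1 (adjusted P = 0.676) and -0.86 with the deposited ratios (adjusted P = 0.142). A_52_P224323 (NM_001013581) was not well above background in *Mut* on any array but was in *WT* on all 3, at ratios of 0.01, -0.12 and -0.09 (mean -0.07, SE 0.053, adjusted P = 0.372). For that probe *WT* over *Mut* has only a bound, at least 1.01-fold, where the dim channel is set to the lowest signal well above background or its own level, whichever is higher. *Mut* and *WT* levels overlapped at both probes, so the genotypes were set apart at 1 of the 3 probes. Which part of each transcript the probes bind was not determined.

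The Par6 adaptors couple Cdc42 to the aPKC. *Pard6g* (A_51_P425657, NM_053117) stood at 8.86, 8.81 and 8.80 in *Mut* and at 9.06, 8.94 and 8.96 in *WT*. All *Mut* pools were below all *WT* pools, at a mean log2 *Mut*/*WT* of -0.17 (SE 0.051, n = 3, limma adjusted P = 0.0292), or 1.12-fold lower. On the *WT* vs *WT* array the same probe had a log2 Cy3/Cy5 of -0.21, as large as the genotype difference, and *WT* pool 2 in Cy3 stood at 8.86. When a dye term was taken from that array, the ratio turned to 0.04 (adjusted P = 0.908), and without array 1, without array 2 or with unpaired channels the adjusted P was 0.113, 0.108 and 0.0625.

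*Pard6a* (A_51_P456366, NM_019695) was well above background in every channel, with levels of 7.61, 7.59 and 7.67 in *Mut* and 7.76, 7.65 and 7.68 in *WT*. The levels overlapped, and the log2 *Mut*/*WT* was -0.07 (SE 0.053, adjusted P = 0.334, 95% interval -0.19 to 0.04). *Pard6b* (A_51_P374101, NM_021409) was not well above background in *Mut* on any array and was so in *WT* on 1 array, at levels of 6.25, 6.19 and 6.27 in *Mut* and 6.33, 6.29 and 6.25 in *WT*. No fold is given for *Pard6b*, whose signal of 55 to 65 in Cy3 and 73 to 76 in Cy5 stood against a local background of 14.5 to 16 and 50.5 to 58.

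The aPKCs are the kinases of the Par complex, encoded by *Prkci* (aPKC iota) and *Prkcz* (aPKC zeta). *Prkci* (A_51_P406671, NM_008857) stood at 8.26, 8.32 and 8.24 in *Mut* and at 8.35, 8.38 and 8.45 in *WT*. The groups did not overlap, but the mean log2 *Mut*/*WT* of -0.12 (SE 0.054, n = 3) did not pass the threshold (limma adjusted P = 0.120). On the *WT* vs *WT* array both *WT* pools stood at 8.20, lower than every *Mut* pool.

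*Prkcz* showed the largest mean ratio among the 15 probes, at A_52_P438084 (NM_008860). Its levels were 8.70, 8.60 and 8.52 in *Mut* and 8.21, 8.22 and 8.05 in *WT*, so that the lowest *Mut* pool exceeded the highest *WT* pool. The log2 *Mut*/*WT* was 0.49, 0.38 and 0.47, a mean of 0.45 (SE 0.052, n = 3, limma adjusted P = 9.27e-05), or 1.37-fold, but -0.03 with median centring. On the *WT* vs *WT* array the log2 Cy3/Cy5 was 0.11 and *WT* pools 1 and 2 stood at 8.30 and 8.41, between the *WT* and the *Mut* pools of the other arrays. With the dye term the mean was 0.34 (adjusted P = 0.164), in the same direction but not past the threshold.

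The other *Prkcz* probes carry the same accession. A_52_P284889, well above background in both channels of all 3 arrays, had log2 *Mut*/*WT* ratios of -0.06, 0.01 and -0.03 (mean -0.03, SE 0.051, adjusted P = 0.730). Its 95% interval, -0.14 to 0.09, does not reach the interval of A_52_P438084, 0.34 to 0.56. A_52_P600822 was not well above background in *Mut* on any array and had ratios of 0.03, -0.14 and -0.25 (mean -0.12, SE 0.061, adjusted P = 0.176). Its mean *WT* over *Mut* was bounded at 1.05-fold or more, but its 95% interval, -0.25 to 0.02, includes 0. The 3 probes of 1 gene thus gave 1 difference past the adjusted P and 2 that did not pass it.

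**Figure D2:**
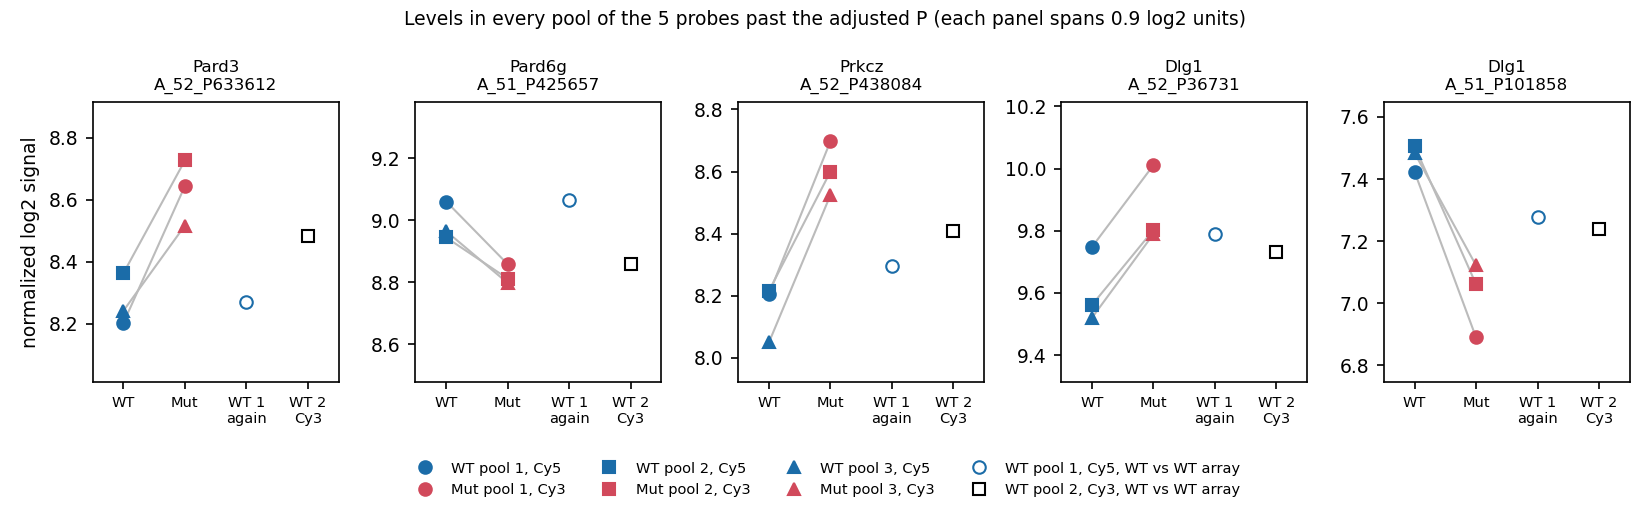
Normalized log2 signal of the 5 polarity probes with an adjusted P under 0.05, 1 panel per probe and each on a scale of 0.9 log2 units, for *WT* pools 1 to 3 in Cy5 and *Mut* pools 1 to 3 in Cy3 (grey lines join the pools of an array), and for *WT* pools 1 and 2 on the *WT* vs *WT* array (open symbols). *Mut* and *WT* pools of arrays 1 to 3 do not overlap in any panel. *WT* pool 2 in Cy3 stands between the genotypes, for *Pard6g* at the level of *Mut* pool 1 (8.86). The exception is *Dlg1* A_52_P36731, where it stands among the *WT* pools and *WT* pool 1 of the *WT* vs *WT* array reaches *Mut* pool 3 (9.79).

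The Scribble complex joins the scaffolds Scribble and Dlg with Lgl, the protein that aPKC phosphorylates to keep it from the apical side. *Scrib* (A_52_P683315, NM_134089) stood at 12.29, 12.34 and 12.32 in *Mut* and at 12.26, 12.20 and 12.17 in *WT*. The pools did not overlap, but the log2 *Mut*/*WT* of 0.02, 0.15 and 0.14 had a mean of 0.10 (SE 0.053, n = 3, limma adjusted P = 0.166) and a 95% interval of -0.01 to 0.22, and was -0.56 with median centring. The *WT* pools of the *WT* vs *WT* array, at 12.31 and 12.35, were both above every *WT* pool of arrays 1 to 3. The median signal of *Scrib* was 3125 to 3255 in Cy3 and 6401 to 7925 in Cy5 before normalization, well above its background.

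*Dlg1* was measured by 2 probes of the same accession (NM_007862), and they differed between the genotypes in opposite directions, except with median centring, where both were lower in *Mut*. A_52_P36731 stood at 10.01, 9.80 and 9.79 in *Mut* and at 9.75, 9.56 and 9.52 in *WT*, and A_51_P101858 at 6.89, 7.06 and 7.12 in *Mut* and at 7.42, 7.51 and 7.48 in *WT*. At neither probe did the pools of the genotypes overlap. The first had log2 *Mut*/*WT* ratios of 0.26, 0.24 and 0.27 (mean 0.26, SE 0.051, adjusted P = 0.00265, 1.20-fold higher), and -0.32 with median centring. The second had ratios of -0.53, -0.44 and -0.36 (mean -0.45, SE 0.055, adjusted P = 0.000127, 1.36-fold lower), and kept its direction with median centring (-0.71). Both ratios were close to 0 on the *WT* vs *WT* array, at -0.06 and -0.04, and both kept their direction with the dye term, at 0.32 (adjusted P = 0.177) and -0.41 (adjusted P = 0.112).

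Of the 5303 genes on the array with 2 or more probes, 351 (6.62%) had probes past the adjusted P in both directions, as *Dlg1* did. With *Pard3* and *Prkcz*, 3 of the polarity genes had 2 or more probes, and *Dlg1* was the 1 of them with this pattern. The pools of *WT* 1 and 2 on the *WT* vs *WT* array stood at 9.79 and 9.73 for A_52_P36731 and at 7.28 and 7.24 for A_51_P101858. At the first probe *WT* pool 1 was thus above every *WT* pool of arrays 1 to 3 and reached *Mut* pool 3 (9.79). At the second probe both values lay between the *Mut* and the *WT* pools of arrays 1 to 3.

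*Llgl1* (A_51_P386638, NM_008502), which encodes an Lgl protein, stood at 10.38, 10.50 and 10.39 in *Mut* and at 10.55, 10.50 and 10.61 in *WT*. The levels of pool 2 were the same in both channels to 2 decimals, and the groups overlapped. The mean log2 *Mut*/*WT* was -0.13 (SE 0.058, n = 3, limma adjusted P = 0.112), with a 95% interval of -0.26 to -0.004.

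*Crb3* (A_51_P328089, NM_177638), which encodes the small Crumbs protein of epithelia, reached a signal well above background in neither channel of the 4 arrays. On arrays 1, 2 and 3 the median Cy3 signal was 53, 44 and 45, and the median Cy5 signal 59, 59 and 62, against a local background of 12 to 16 and 44 to 51. No fold is given for *Crb3*, since neither genotype had a signal well above background (adjusted P = 0.173).

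Across the 15 probes, 10 were well above background in both channels of arrays 1 to 3, 4 were not in *Mut* on any array, and 1 of these 4, that of *Crb3*, was not in *WT* either. The ratio was above 0 for 4 probes and below 0 for 11, and had the same sign on all 3 arrays for 8. Levels of *Mut* and *WT* did not overlap for 7 of the 15 probes (46.7%), beside 38.0% of all probes, so separated pools were common on these arrays whatever the gene. A lower level of a polarity transcript in a pool could come from fewer cells of a type or from less RNA per cell, and these cannot be told apart.

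The dye and the pools were examined through the *WT* vs *WT* array. There the log2 Cy3/Cy5 of the 15 probes, which holds no genotype difference, ranged from -0.21 to 0.21. The 3 *Mut* pools differed on average from *WT* pool 2 in the same dye by -0.22 to 0.20 on the log2 scale. The direction was that of *Mut*/*WT* for 5 of the 5 probes past the adjusted P. Both values hold the same *Mut* pools, and the 5 probes were taken by their ratio, so the directions are not independent. The differences were 0.15 for *Pard3* A_52_P633612, -0.04 for *Pard6g*, 0.20 for *Prkcz* A_52_P438084, 0.13 for *Dlg1* A_52_P36731 and -0.22 for *Dlg1* A_51_P101858. Each was smaller than the ratio to the *WT* pools in the other dye.

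With the dye term, 4 of the 5 probes kept their direction and that of *Pard6g* turned, and 0 of the 15 probes were called, beside 0.785% of all probes. The term comes from 1 array, so it also holds the difference between *WT* pools 2 and 1. Its fit has larger SEs: for *Dlg1* A_52_P36731 the SE was 0.101 in place of 0.051, while the ratio was 0.32 in place of 0.26. A lost adjusted P therefore does not by itself show a dye effect. The dye-term values ranged from -0.41 to 0.34 and the lowest adjusted P was 0.112 (limma). *WT* pool 1 in Cy5 differed between array 1 and the *WT* vs *WT* array by -0.31 to 0.14 over the 15 probes, with a median size of 0.10 beside 0.11 over all probes. The largest of these differences, -0.31 at *Pard6a*, exceeded the *Mut*/*WT* ratio of that probe. How much of each ratio belongs to the dye was not tested beyond these values.

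**Figure D3:**
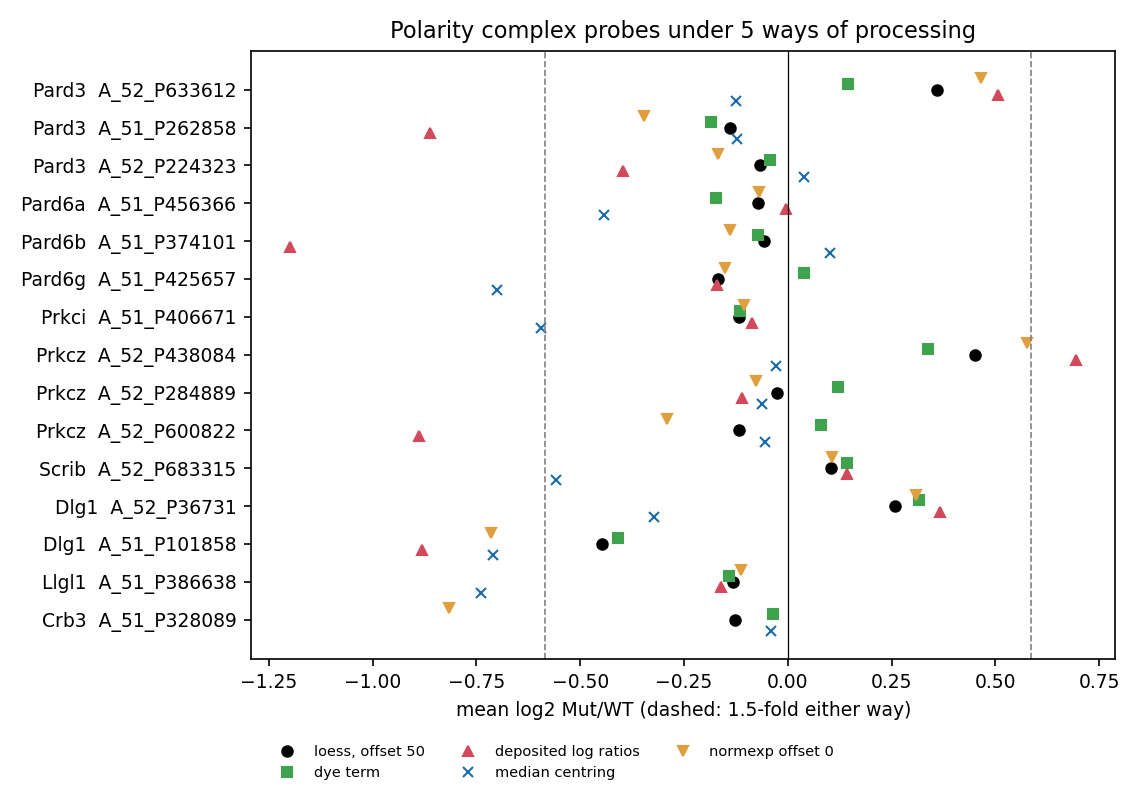
Mean log2 *Mut*/*WT* of the 15 polarity probes (rows) under 5 ways of processing: loess with an offset of 50 (black), a dye term, the deposited log ratios, median centring and an offset of 0; dashed lines mark 1.5-fold either way. Median centring sets the higher *Pard3*, *Prkcz*, *Dlg1* and *Scrib* probes below 0 (-0.12, -0.03, -0.32 and -0.56), and the deposited ratios give no value for *Crb3*, which they list at 0. Ratios of the dim *Pard6b* and *Crb3* probes are plotted but not read as folds.

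Markers of other cells of the kidney were measured in the same pools. The log2 of the summed signal of 10 ureteric bud genes was 10.41 to 10.45 in *Mut* and 10.48 to 10.50 in *WT*, and 0 of the 10 were called. Of the 10, 6 were well above background in *WT* on all 3 arrays and 5 in *Mut*. *Ret*, which marks the ureteric tips, was not well above background on any of arrays 1 to 3. Differentiating nephron genes summed to 11.63 to 11.70 in *Mut* and 11.17 to 11.24 in *WT*, with 2 of 10 called higher (0.554% of all probes), both with the dye term too, and on the *WT* vs *WT* array both *WT* pools stood at 11.71 and 11.72. Stromal genes summed to 14.59 to 14.88 in *Mut* and 14.43 to 14.60 in *WT*, with 3 of 10 called higher, but 0 with the dye term. The 5 podocyte genes summed to 9.10 to 9.13 in *Mut* and 9.34 to 9.39 in *WT*, with 0 called, and the *WT* pools of the *WT* vs *WT* array stood at 9.03 and 9.05, below every *Mut* pool. Erythroid genes summed to 11.78 to 11.86 in *Mut* and 10.76 to 10.90 in *WT*, and on the *WT* vs *WT* array to 11.99 and 11.80 in *WT* pools 1 and 2. *Hba-a1*, at a mean of 11.59 in *Mut* and 10.43 in *WT*, made up most of these sums. Of the 7, 1 was called higher, *Hba-a1* (log2 1.17, adjusted P = 2.98e-07), a globin gene named after its value was seen, which was also called with the dye term (1.39). The part of these cells in the ratios of the polarity genes was not tested.

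Genes that act with the complexes were taken from lists of 78 genes, of which 69 were matched and were each read at their brightest probe, the one whose signal averaged highest over both channels. Of the 69, 2 were called lower in *Mut*, *Rab8a* and *Cab39*, and 0 higher, beside 1.46% and 0.554% of all probes. Neither was called with an offset of 0 (-0.90 and -0.77), median centring (-1.34 and -1.27) or the adjusted *t*-test, settings under which 0 of all probes were called, nor with the dye term. With the deposited ratios *Cab39* was called (-0.83) and *Rab8a* was not (-0.93, adjusted P = 0.0841). Without the fold minimum 16 genes (23.2%) were higher and 11 (15.9%) lower, beside 13.2% and 16.4% of all probes, and the median log2 *Mut*/*WT* over the 69 genes was 0.07, beside -0.06 over the 10 complex genes and -0.00 over all probes. With median centring 14 of the 16 higher genes turned lower and none of the 11 lower genes turned. It also moved bright genes outside these lists down, such as *Wt1* (from -0.08 to -0.71) and *Krt18* (from -0.07 to -0.60). The share of all probes that turned is not given here, so the turns are not read as particular to polarity genes. With the dye term 1 of the 11 turned, *Rdx*, and 24 of the 27 genes had a log2 Cy3/Cy5 of the same sign as their *Mut*/*WT* when both channels were *WT*. The share of all probes with the same sign is not given here, so that count is not read as particular to these genes. Of these 27 genes, 6 had another probe past the adjusted P in the other direction, *Rdx*, *Patj*, *Ctnnd1*, *Cdc42*, *Mark3* and *Strada*.

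*Rab8a* encodes a small GTPase that carries vesicles to the apical membrane. Its probe A_51_P407406 stood at 8.20, 8.42 and 8.84 in *Mut* and at 9.28, 9.29 and 9.33 in *WT*, without overlap. The log2 *Mut*/*WT* was -1.08, -0.87 and -0.48, a mean of -0.81 (SE 0.089, limma adjusted P = 6.23e-05), and *Rab8a* fell by 1.75-fold. Its second probe, A_52_P684214, was at -0.10 (SE 0.058, adjusted P = 0.227), with overlapping levels. On the *WT* vs *WT* array the first probe was at -0.15, and with the dye term at -0.66 (adjusted P = 0.116).

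*Cab39* encodes MO25, a scaffold that activates the polarity kinase LKB1. Its probe A_51_P230934 stood at 8.81, 8.75 and 8.89 in *Mut* and at 9.58, 9.55 and 9.49 in *WT*, without overlap. The log2 *Mut*/*WT* was -0.77, -0.80 and -0.60, a mean of -0.72 (SE 0.057, limma adjusted P = 7.03e-06), a fall of 1.65-fold, and the second probe fell too (-0.67). On the *WT* vs *WT* array *WT* pools 1 and 2 stood at 9.03 and 8.81, so that pool 2, in the dye of the *Mut* pools, was at their level, and the dye term gave -0.50 (adjusted P = 0.0637).

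Among the 16 measured partners of Par and aPKC, 5 were higher and 4 lower past the adjusted P (13.2% and 16.4% of all probes), at a median log2 of 0.04. Apart from the 6 genes named by rule, *Rab8a*, *Cab39*, *Ywhae*, *Ywhag*, *Cdh4* and *Nectin1*, the genes named from these lists were chosen after their values were seen. The higher ones were *Ywhae* (0.53), *Tiam1* (0.32), *Cdc42* (0.31), *Strada* (0.17) and *Mark3* (0.16), all of which turned lower with median centring, and the lower ones, beside *Cab39*, were *Ywhag* (-0.47), *Ywhaq* (-0.26) and *Ywhab* (-0.25). Other probes of *Strada* (A_52_P181022, -0.41, adjusted P = 0.00173, not well above background in *Mut*, *WT* over *Mut* at least 1.17-fold) and *Mark3* (A_52_P331644, -0.44, adjusted P = 0.00133) were past the threshold in the other direction. The *Ywha* genes encode 14-3-3 proteins, which bind phosphorylated Par3, and thus were found on both sides. *Ywhae* had ratios of 0.68, 0.65 and 0.26 and of 0.17 on the *WT* vs *WT* array, and without array 3 its mean of 0.67 passed 1.5-fold, whereas *Ywhag* had ratios of -0.49, -0.55 and -0.37 and of -0.19.

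*Cdc42*, the GTPase that activates Par6, had 3 probes that did not go the same way. The one with the highest signal, A_51_P230977, was at 0.31 (SE 0.066, adjusted P = 0.00392), and A_52_P229728 and A_52_P249443 were at -0.53 and -0.63, the last of which was called. On the *WT* vs *WT* array the 3 probes stood at 0.26, -0.37 and -0.42, with the same signs. With the dye term they were at 0.05, -0.17 and -0.21, and none was called.

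Of 8 measured genes of the Crumbs complex, *Amotl2* (0.24) and *Patj* (0.16) were higher past the adjusted P and *Lin7c* (-0.24) and *Amot* (-0.16) lower, the last not well above background in *Mut* on any array, with *WT* over *Mut* at least 1.05-fold, and of 6 relatives of the Scribble complex *Llgl2* (0.16) was higher, beside 13.2% of all probes that were higher and 16.4% that were lower. *Amotl2*, *Patj* and *Llgl2* turned lower with median centring, and a second *Patj* probe, A_52_P176333, was lower with loess too (-0.27, adjusted P = 0.00468). At the dimmer of 2 probes of *Erbin*, a Scribble-like scaffold, A_52_P276815 was called lower (-0.64), while the brighter probe was at 0.06 (adjusted P = 0.552). That call was lost without array 1 (-0.52), with the deposited ratios (-1.23, adjusted P = 0.0669) and with an offset of 0, median centring and the adjusted *t*-test, which call 0 of all probes, and was kept with the dye term (-0.81, adjusted P = 0.0199).

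Of 27 junction genes, 7 were higher and 3 lower past the adjusted P (13.2% and 16.4% of all probes), at a median of 0.09, and 0 were called (2.01% of all probes). Besides *Cdh4*, the lower genes were *Ctnnd1* (-0.19) and *Cldn4*, which was not well above background in either genotype. A second *Ctnnd1* probe, A_52_P653276, was higher (0.28, adjusted P = 0.00271) but not well above background in *WT* on any array, with *Mut* over *WT* at least 1.21-fold. *Nectin1*, a junctional adhesion molecule, had ratios of 0.46, 0.37 and 0.33 (mean 0.39, SE 0.053, adjusted P = 0.000265), 0.10 on the *WT* vs *WT* array and -0.14 with median centring. *Cdh4*, the R-cadherin gene, had ratios of -0.68, -0.32 and -0.19 (mean -0.40, SE 0.079, adjusted P = 0.00295) and -0.05 on the *WT* vs *WT* array. Without array 1 its mean was -0.26, and its second probe, A_52_P181943, was at -0.03 (adjusted P = 0.700). *Cdh1* (E-cadherin) and *Cdh2* (N-cadherin) were at 0.07 and 0.02 and did not pass (adjusted P = 0.346 and 0.845). The *Cdh1* probe was well above background in only 1 *Mut* and 2 *WT* channels of the 3 arrays, and was at 0.37 with the deposited ratios. Of 12 genes of the apical domain, *Ezr* (0.24, but -0.37 with median centring) was higher and *Rdx* (-0.23) lower besides *Rab8a* (13.2% and 16.4% of all probes), at a median of -0.02. A second *Rdx* probe, A_52_P571684, was higher (0.23, adjusted P = 0.00832), and -0.06 with median centring.

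**Figure D4:**
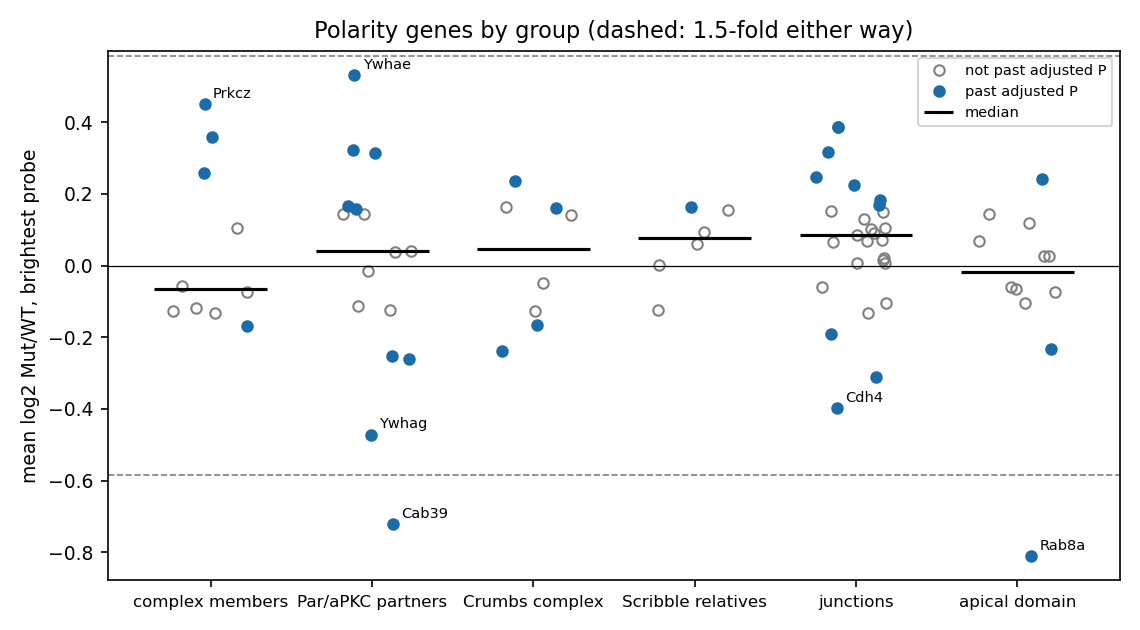
Mean log2 *Mut*/*WT* at the brightest probe of each gene, by group (columns); filled points have an adjusted P under 0.05 (limma), horizontal bars are group medians and dashed lines mark 1.5-fold either way. *Rab8a* (-0.81) and *Cab39* (-0.72) lie beyond the dashed line, and the medians lie between -0.06 and 0.09.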

How the data were processed

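Per the labels, RNA of FACS-sorted *Six2*-positive cells was hybridized to 4 dual-colour Agilent arrays on 1 slide, and the array, pool and dye of each channel were taken from those labels. The intensity values, which the authors deposited as extracted with Agilent Feature Extraction 10.7.3.1, are linear and not normalized. The deposited log10 ratios of red over green, which that program corrected for background and dye, served as an alternative, and equalled the series table in 180072 of 180072 values within 1e-06. GeneSpring values were not analysed here.

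Median signals of 45018 spots per array were corrected by normexp (offset 50) against the median background, normalized by loess within arrays and averaged per probe, without control and outlier spots (122 to 162 per array). Levels of single channels are log2 signals after Aquantile normalization. The median signal was 65.5 to 82 in Cy3 and 84 to 92 in Cy5, and precision is limited by having 3 arrays. The log2 *Mut*/*WT* ratios were tested with limma 3.58.1 (R 4.3.3), and P-values were adjusted by Benjamini-Hochberg for 41166 probes. A channel is called well above background where Feature Extraction marks it so. The P-values of limma rest on the spread of the log ratios between arrays, that of the probe combined with that of all probes. Thus *Dlg1* A_52_P36731, with an SD of 0.0148 over its 3 log ratios, had an SE of 0.051, while *Cdh4* (SD 0.254) had 0.079. In the unadjusted *t*-test of the methods P was 0.113 for *Cdh4* and 0.0589 for *Ywhae*. It was 0.00723 to 0.0434 for *Cab39*, *Nectin1*, *Ywhag* and *Rab8a*. Whether each pool came from separate litters was not given. The pools of an array share the array, and their deviations from the group means correlated at 0.387, 0.428 and 0.318 on arrays 1, 2 and 3, so the ratios keep that pairing.

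Accessions were matched to symbols of the GRCm38.p6 assembly for 22951 of 41174 probes (55.7%), for names only. *Pard3b*, *Wwc1*, *Crb2*, *Mpp7*, *Amotl1*, *Dlg5*, *Lrrc7*, *Cgn*, *Afdn*, *Synpo*, *Csf1r* and *Cd68* were not matched. All probes of the 10 genes are described. Of the other polarity genes, those called are named, with the largest past the adjusted P that went the same way on all 3 arrays and were well above background in both channels, up to 6. Of the cell type markers, *Six2* and list counts are given. Members and lists were chosen with earlier results of these data known. In the lists not named in the results, 0 of 8 endothelial and 0 of 4 macrophage genes were called.

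Alternatives were the deposited log ratios, an offset of 0, median centring, keeping outlier spots, leaving out dim probes, a dye term taken from the array of both *WT* pools, single channels without pairing, each replicate left out in turn, the *t*-test of the methods and no fold minimum.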

Additional observations from a re-analysis of the deposited data

How the results depend on the processing

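The count of polarity probes called, 0, was 2 with the deposited log ratios and 5 with no fold minimum, and 0 under every other alternative run, leaving out each array included (0 to 0). The count of other polarity genes called, 2, was 5 with the deposited ratios, 27 with no fold minimum, and 0 with an offset of 0, median centring, the dye term and the methods' *t*-test after adjustment. Over all probes 2705 were called with the deposited ratios, 323 with the dye term, and 0 with each of the other 3 settings that gave 0, which also left 0 of all probes past the adjusted P. The count of other polarity genes was 2 to 3 when 1 array was left out, the third being *Ywhae* without array 3, and 2 under the remaining settings. The count of polarity probes past the adjusted P without a fold minimum, 5, was examined under the alternatives after seeing the data. It was 3 with the deposited ratios, 0 with an offset of 0, with median centring, with the dye term and with the adjusted *t*-test, and 4 to 6 when 1 array was left out. Without the pairing (no replicate block) it was 4, *Pard6g* being lost, and the counts of called probes and genes stayed 0 and 2. *Prkcz* A_52_P600822 (adjusted P = 0.0364) and *Crb3* (adjusted P = 0.0190) passed without array 1 only.

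Median centring turned 6 of the 15 ratios, to -0.12 and 0.039 for *Pard3* A_52_P633612 and A_52_P224323, 0.10 for *Pard6b*, -0.029 for *Prkcz* A_52_P438084, -0.56 for *Scrib* and -0.32 for *Dlg1* A_52_P36731. The dye term turned 3, to 0.038 for *Pard6g* and to 0.12 and 0.081 for *Prkcz* A_52_P284889 and A_52_P600822. The cause was not tested. Another 166 values of single probes kept their direction and stayed not called (adjusted P with the fold minimum), though some crossed the adjusted P alone, as given above, and the last 2, *Prkcz* A_52_P438084 (0.69) and *Dlg1* A_51_P101858 (-0.88), were called with the deposited ratios. The value of *Pard6b*, dim in every *Mut* channel, is not read as a fold. *Crb3* is listed at 0 in the deposited ratios, which give no value for it. Probes near background, those of *Crb3* and *Pard6b* above all, are limited by their signal.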
